A study of Bos taurus with 40 samples.

Results

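BRAF and PRKAR1A, a kinase of the MAPK cascade and the type I alpha regulatory subunit of protein kinase A, were followed in strips of bovine tracheal smooth muscle under carbachol and cyclic stretch. They are 2 of the 14 genes named by the platform annotation and were chosen for their pathways. BRAF is represented by spots 13 and 14 and PRKAR1A by spots 1019 and 1020, that is 4 of the 1040 spots on the array. The tracheae came from a slaughterhouse, and the labels give no age, sex or genotype of the animals. Untreated strips were kept in physiological salt solution without stretch. Saline stretched strips were in the same solution and were oscillated at 10% of muscle length and 1 Hz. Carbachol unstretched strips were held in 1 µM carbachol, which activates muscarinic acetylcholine receptors, and carbachol stretched strips received both. Muscle of 5 animals went through all 4 treatments, giving 20 RNA samples, each labelled with Cy3 and, separately, with Cy5 and hybridised on 20 arrays of 2 channels. How long the treatments lasted is not stated in the labels.

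BRAF phosphorylates MEK once it is recruited by active RAS, and MEK in turn activates the kinases ERK1/2, which carry growth factor and stretch signals to the nucleus. PRKAR1A holds the catalytic subunits of protein kinase A inactive until cAMP binds to it. In airway muscle the cAMP route is best known for the relaxation that follows beta-adrenergic stimulation, and it opposes the contraction that muscarinic agonists such as carbachol produce. Both genes thus sit in pathways that meet in this tissue, and the arrays measured their transcripts, not the activity of the kinases. In strips of whole muscle, fewer cells of a type and less RNA per cell cannot be told apart.

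Neither gene passed the test in any of the 8 comparisons of treatments. The labellings of an RNA, read on different arrays, differed more for BRAF than for most spot pairs. PRKAR1A had a small difference in the same direction in all 5 animals under stretch, which did not pass. Of 179 spot pairs with all RNA samples, 28 were higher and 18 lower in all 5 animals. In animals 2, 4 and 5 the PRKAR1A change is partly one between dyes. Levels are given as log2 spot intensity scaled between arrays, and changes as differences of these levels, so that a change of 1 is a doubling. A change passed when its adjusted p in limma (Benjamini-Hochberg over the 235 spot pairs tested) was under 0.05.

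Arrays held values for 334 to 575 spots, and the lowest reading in the table was 369. Of the 235 tested spot pairs, 7 carry a gene name. The lists used for the pathways hold few measured genes. Of 31 genes of MAPK signalling 3 are named on the array, BRAF, MAP3K5 and PAK3, and BRAF alone could be tested. MAP3K5, an upstream kinase of the JNK and p38 routes, had a value on 0 arrays. PAK3, a kinase regulated by small GTPases, had a value on 3 arrays. Of 19 genes of cAMP signalling PRKAR1A was the 1 named, of 5 protein kinase C genes PRKCE, and of 2 muscarinic receptors 0. None of the markers fixed for smooth muscle (0 of 6 named), airway epithelium (0 of 7), fibroblasts (0 of 5), endothelium (0 of 3), leukocytes (0 of 4), cartilage (0 of 2) or nerve and glia (0 of 3) carries a name, so the tissue label and its cell makeup were not checked here. Where the probes lie in the genome is not stated in the sources at hand.

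BRAF had a value at both spots on all 20 arrays, with raw readings between 638 and 6239. Its duplicate spots differed by a median of 0.081 on the log2 scale over 40 channels and by at most 0.45. In untreated strips the BRAF level was 10.83, 11.67, 11.60, 10.82 and 11.14 in animals 1 to 5. In saline stretched strips it was 9.82, 11.41, 11.03, 10.90 and 11.31. The strips in carbachol without stretch had levels of 10.14, 11.19, 11.38, 11.15 and 11.44, and those in carbachol with stretch 11.40, 11.85, 11.12, 11.01 and 11.19. The 4 groups overlapped throughout, and the lowest scaled levels were those of animal 1 in saline with stretch and in carbachol without stretch.

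The group means of BRAF ranked carbachol stretched first at 11.31 ± 0.335 (SD, n = 5), then untreated at 11.21 ± 0.408 (SD, n = 5), carbachol unstretched at 11.06 ± 0.526 (SD, n = 5) and saline stretched at 10.89 ± 0.635 (SD, n = 5). No neighbours in that order differed by more than their spread, and the whole distance from first to last was smaller than the SD of the saline stretched group. Mean BRAF levels of the animals ran from 10.55 to 11.53.

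**Figure D1:**
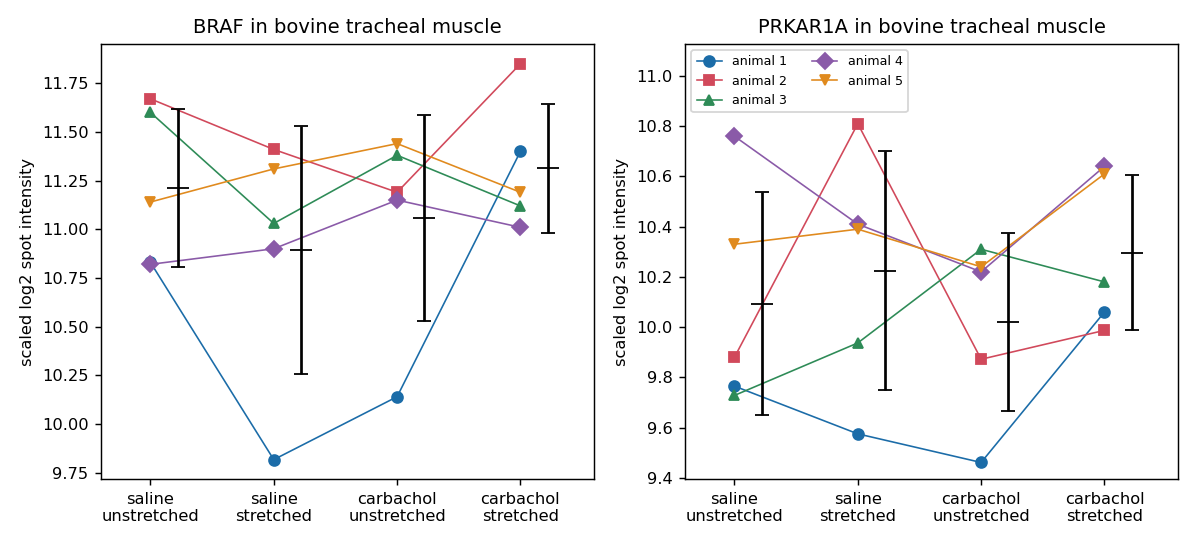
Scaled log2 spot intensity of BRAF (left) and PRKAR1A (right) in the 4 treatment groups. Each line joins the strips of 1 animal, and black bars are the group mean ± SD over 5 animals. The groups overlap for both genes, and animal 1 has the lowest BRAF levels, 9.82 in saline stretched and 10.14 in carbachol unstretched strips.

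Stretch as such, averaged over both drug states, left BRAF with a change of -0.03 ± 0.148 (SE) and a 95% interval of -0.35 to 0.28 (limma, adjusted p = 0.995). The changes were 0.12, 0.20, -0.41, -0.03 and -0.04 in animals 1 to 5, higher in 2 of 5. In this comparison 6 of 235 spot pairs passed, that is 2.55%, all of them higher. The sign of the BRAF value is not settled, since it was 0.016 without scaling between arrays and 0.062 without animal 3.

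Carbachol, averaged over both stretch states, gave BRAF a change of 0.13 ± 0.148 (SE), with an interval of -0.18 to 0.45 (limma, adjusted p = 0.986). In animals 1 to 5 it was 0.44, -0.02, -0.07, 0.22 and 0.088. Of all spot pairs 0% passed for carbachol, with 15 at an unadjusted p under 0.05. Without animal 1 the change was 0.055, and it was -0.0059 from Cy3 values alone and 0.272 from Cy5 values alone.

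The response of BRAF to stretch was then read in each drug state. In saline it was -0.32 ± 0.209 (SE, interval -0.76 to 0.12, adjusted p = 0.591 in limma), and in carbachol it was 0.26 ± 0.209 (SE, interval -0.19 to 0.70, adjusted p = 0.617 in limma). In each state BRAF was higher in 2 of 5 animals: in saline the changes were -1.02, -0.27, -0.57, 0.077 and 0.16 in animals 1 to 5, and in carbachol 1.25, 0.67, -0.26, -0.14 and -0.25. Without animal 1 the values were -0.149 in saline and 0.0055 in carbachol, and in animals 4 and 5 alone they were 0.12 and -0.19. The shares of spot pairs that passed were 1.7% and 0.851%. The difference of these responses, the interaction, was 0.58 ± 0.296 (SE) with an interval of -0.05 to 1.20 and an adjusted p of 0.502 in limma. At 19th of 235 its size ranked high, but 0% of spot pairs passed for the interaction, with 24 at an unadjusted p under 0.05.

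The BRAF interaction differed in sign between animals, and in animals 1, 4 and 5 it was read between arrays only. It was 2.27, 0.93, 0.31, -0.22 and -0.41 in animals 1 to 5, and an exact sign-flip permutation test over the 5 animals gave p = 0.375, with 0.062 the smallest p this number allows. Without animal 1 the interaction was 0.154. Animals 1 to 3, on arrays 1 to 12, averaged 1.17, and animals 4 and 5, on arrays 13 to 20, averaged -0.31. The difference between these sets, -1.48 ± 0.532 (SE), did not pass either (limma, adjusted p = 0.170), as was so for 220 of 220 spot pairs tested (0% passed, 39 at an unadjusted p under 0.05).

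**Figure D2:**
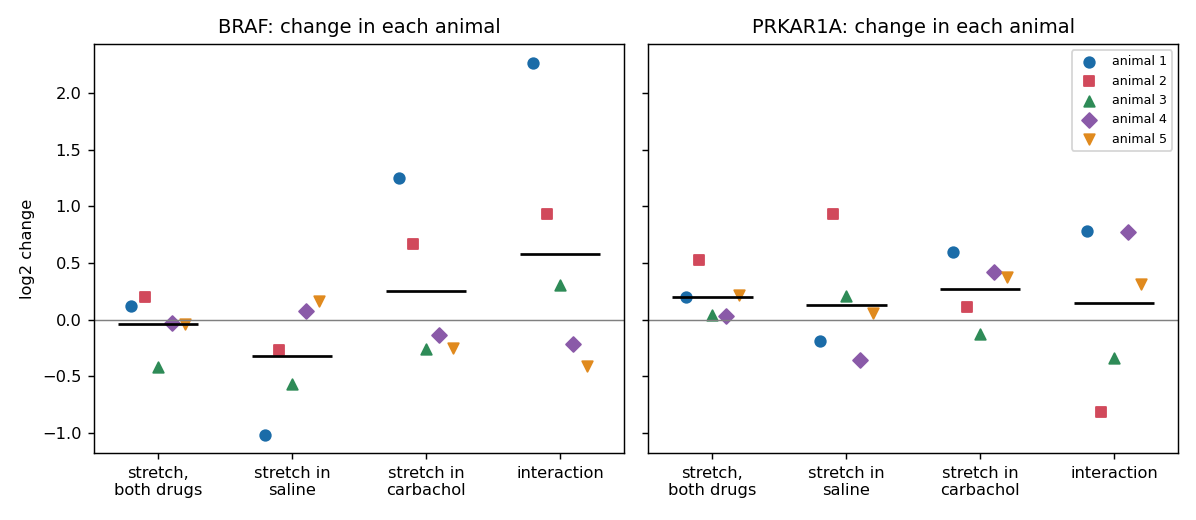
Change of BRAF (left) and PRKAR1A (right) on the log2 scale in each of 5 animals for stretch averaged over both drug states, stretch in saline, stretch in carbachol and the interaction, which is the latter minus the former. Points are animals and black lines their mean. The BRAF interaction runs from 2.27 in animal 1 to -0.41 in animal 5, and the stretch change of PRKAR1A is above 0 in all 5 animals. Of 179 spot pairs with all RNA samples, 28 were above 0 and 18 below 0 in all 5. In animals 2, 4 and 5 the PRKAR1A change is partly one between dyes.

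The remaining BRAF comparisons reuse the same strips. Carbachol in stretched strips had a change of 0.42 ± 0.209 (SE, interval -0.02 to 0.86, adjusted p = 0.484 in limma), above 0 in 4 of 5 animals and 1.58 in animal 1. Without animal 1 it was 0.132. Carbachol in unstretched strips had one of -0.16 ± 0.209 (SE, interval -0.60 to 0.29, adjusted p = 0.868 in limma), which was 0.019 after quantile normalization and 0.127 from Cy5 values. For each of these, 0% of spot pairs passed. Strips with both treatments differed from untreated strips by 0.10 ± 0.209 (SE, interval -0.34 to 0.54, adjusted p = 0.972 in limma), where 2.13% of spot pairs passed, and by -0.016 without animal 1.

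**Figure D3:**
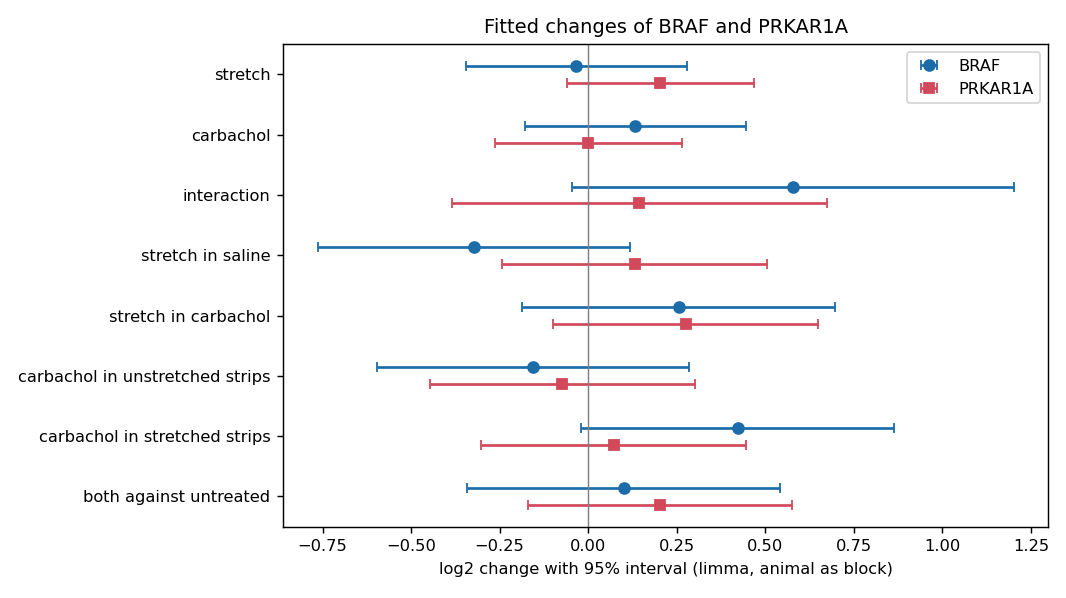
Fitted log2 changes of BRAF (circles) and PRKAR1A (squares) for 8 comparisons of treatments, with 95% intervals from limma with the animal as a block. All 16 intervals include 0, and the widest is that of the BRAF interaction, from -0.05 to 1.20.

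How well BRAF was measured can be read from the 2 labellings of each RNA, which lay on different arrays. The Cy5 level minus the Cy3 level of the same RNA had a mean of 0.029 and an SD of 0.627 over 20 RNA samples, and a median size of 0.542. Over the tested spot pairs that median size was typically 0.297, and 224 of 235 pairs had a smaller one than BRAF. The largest gap was 1.03, in carbachol stretched muscle of animal 4, where raw readings were 691 in Cy3 and 2491 in Cy5. The residual SD of BRAF in the fit was 0.360, against a median of 0.253 over all pairs, and was larger than that of 190 pairs.

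Part of those gaps was shared by both channels of an array. On 16 of 20 arrays both channels of BRAF lay on the same side of the mean of their own RNA, against a median of 14 arrays over 118 spot pairs measured throughout. For 5 pairs of arrays, which hold the same 2 RNA samples with dyes exchanged, these signs mirror each other by construction. Array means of BRAF ran from 9.71 on array 4, with muscle of animal 1, to 11.88 on array 9, with muscle of animal 2, a span that includes the differences between animals given above. The log2 ratio of the 2 channels on an array, over the 15 arrays that pair strips of 1 animal, had a median size of 0.220 and a maximum of 0.540.

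**Figure D4:**
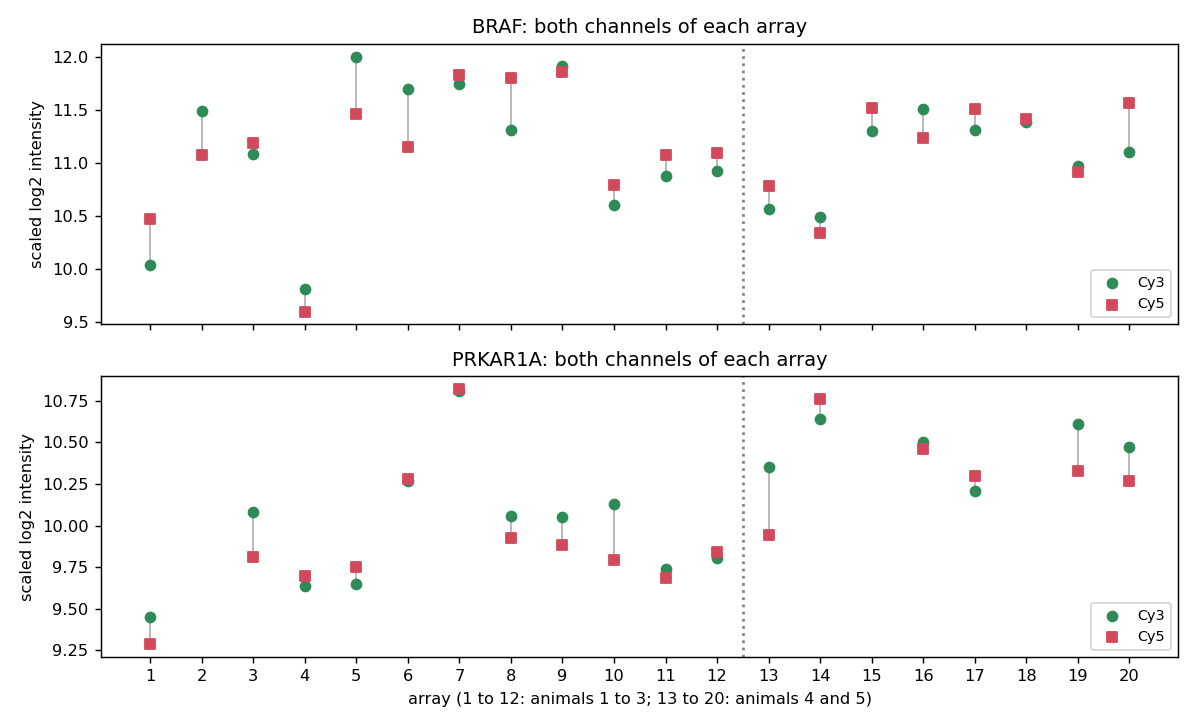
Scaled log2 intensity of both channels of each of the 20 arrays for BRAF (top) and PRKAR1A (bottom), Cy3 as circles and Cy5 as squares, with a grey line joining the channels of an array and a dotted line between the sets of animals. Array means of BRAF span 9.71 to 11.88, which includes differences between animals, whose means ran from 10.55 to 11.53. PRKAR1A is blank on arrays 2, 15 and 18.

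The low BRAF levels of animal 1 were read on arrays 1 and 4, whose means of 10.25 and 9.71 were the lowest of all 20. These 2 arrays hold only its saline stretched and its carbachol unstretched RNA, so their means are those levels again. Its other strips were on arrays 6, 10, 11 and 12, each beside muscle of animal 2 or 3. Those arrays had means between 10.69 and 11.42, and the channels of animal 1 on them had levels of 10.79 to 11.70. In animals 1, 4 and 5 saline stretched and carbachol unstretched strips shared arrays, so that their interaction was read between arrays only. In these animals a BRAF interaction and a difference between arrays cannot be told apart.

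Ratios within an array leave that difference out. Carbachol unstretched over saline stretched muscle gave BRAF log2 ratios of 0.44 and 0.21 in animal 1, 0.22 and 0.28 in animal 4, and -0.21 and 0.46 in animal 5. BRAF was thus higher in the carbachol unstretched strip on 5 of 6 arrays. These arrays cover 3 animals, each with the same RNA samples in exchanged dyes, so they are not independent. The strips in this pairing and the next differ in both carbachol and stretch, so the ratios do not separate the treatments. Carbachol stretched over untreated muscle gave 0.049 in animal 2, -0.11 in animal 3, 0.15 and 0.23 in animal 4, and 0.029 and 0.062 in animal 5, again above 0 on 5 of 6 arrays. Saline stretched over untreated muscle, on 1 array each in animals 2 and 3, gave -0.41 and -0.54, and carbachol stretched over carbachol unstretched muscle of animal 2 gave 0.50.

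A fit with the array as a fixed effect put the BRAF change with carbachol at 0.172 ± 0.063 (SE), with an unadjusted p of 0.0146 and an adjusted p of 0.103 in limma, over all alternatives a range of 0.103 to 0.998. That fit called 18 of 235 spot pairs for carbachol, where the fit on RNA samples called 0. It treats the labellings of an RNA as nearly independent, since their estimated correlation was 0.035. For stretch the same fit gave BRAF -0.076 ± 0.057 (SE, adjusted p = 0.398 in limma).

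**Figure D5:**
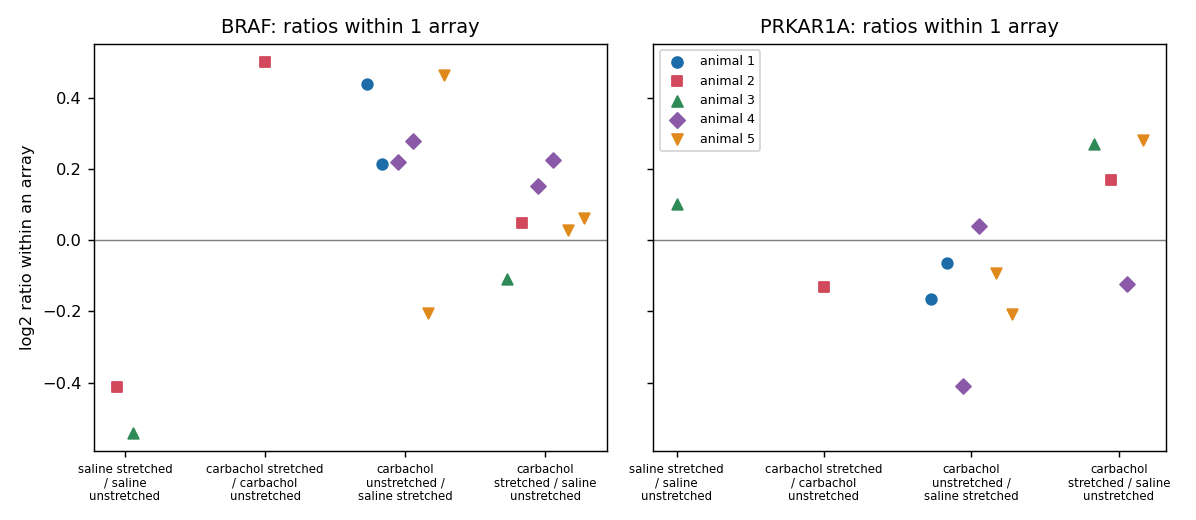
Log2 ratios of BRAF (left) and PRKAR1A (right) between both channels of an array, for the arrays that pair strips of 1 animal, in 4 kinds of pairing. Each point is 1 array and its shape and colour give the animal. BRAF lies above 0 on 5 of 6 arrays for carbachol unstretched over saline stretched muscle and PRKAR1A on 1 of 6. These 6 arrays cover 3 animals with dyes exchanged, and the strips differ in both carbachol and stretch.

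PRKAR1A was measured on 17 of 20 arrays, with raw readings between 448 and 2045. Its first spot had a value on 17 arrays and its second on 14. The blank arrays were 2, 15 and 18, each of which carried an untreated strip in Cy3, beside a saline stretched strip on array 2 and a carbachol stretched strip on arrays 15 and 18. They held 334 to 394 measured spots, against 350 to 575 on the other arrays, and no source at hand states the rule that left cells blank. Every RNA sample kept at least 1 channel. Untreated strips had 7 channels with a value and 2 RNA samples with both dyes, saline stretched strips 9 and 4, carbachol unstretched strips 10 and 5, and carbachol stretched strips 8 and 3.

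In untreated strips the PRKAR1A level was 9.77, 9.88, 9.73, 10.76 and 10.33 in animals 1 to 5. In saline stretched strips it was 9.58, 10.81, 9.94, 10.41 and 10.39. Carbachol unstretched strips had levels of 9.46, 9.87, 10.31, 10.22 and 10.24, and carbachol stretched strips 10.06, 9.99, 10.18, 10.64 and 10.61. All groups overlapped. The saline stretched level of animal 2 was the highest of the 20 and rested on the Cy3 channel of array 7, whose Cy5 channel, with carbachol unstretched muscle of animal 3, was also high at 10.82, against 9.80 for that RNA in Cy3.

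Means of PRKAR1A were 10.30 ± 0.310 (SD, n = 5) in carbachol stretched, 10.22 ± 0.477 (SD, n = 5) in saline stretched, 10.09 ± 0.445 (SD, n = 5) in untreated and 10.02 ± 0.356 (SD, n = 5) in carbachol unstretched strips. Both stretched groups stood above both unstretched groups in that order, but each step was smaller than the SD of either neighbour. The spread lay in part between animals, whose mean levels ran from 9.71 to 10.51.

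The stretch change of PRKAR1A was 0.20 ± 0.125 (SE), a fold of 1.15 with an interval of 0.959 to 1.38, and did not pass (limma, adjusted p = 0.617). It was above 0 in 5 of 5 animals, at 0.20, 0.52, 0.04, 0.032 and 0.22. The exact sign-flip permutation test gave p = 0.062, the smallest that 5 animals allow. Among the 179 spot pairs with all 20 RNA samples, 28 were higher in all 5 animals under stretch, that is 15.6%. Another 18 were lower in all 5, that is 10.1%. Without animal 2 the change was 0.123, and it was 0.116 after median centring and 0.118 after quantile normalization. From Cy5 values alone it was 0.047, and in the fit with the array as a fixed effect 0.113 ± 0.042 (SE), with an adjusted p of 0.0745 in limma. In animals 2, 4 and 5 the untreated level rested on Cy5 alone. A stretched level rested on Cy3 alone in the same animals (saline in animal 2, carbachol in animals 4 and 5). The stretch change there is thus partly one between dyes. A fit of the channels with a dye term gave 0.162 ± 0.114 (SE, adjusted p = 0.632 in limma).

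In saline the stretch change of PRKAR1A was 0.13 ± 0.177 (SE, interval -0.24 to 0.50, adjusted p = 0.792 in limma), with 0.93 in animal 2 and -0.07 without that animal. In carbachol it was 0.28 ± 0.177 (SE, interval -0.10 to 0.65, adjusted p = 0.534 in limma), above 0 in 4 of 5 animals. The interaction was 0.14 ± 0.250 (SE, interval -0.38 to 0.67, adjusted p = 0.876 in limma). It ran from -0.82 in animal 2 to 0.79 in animal 1, and was -0.016 without animal 1 and -0.013 without animal 4.

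Carbachol gave PRKAR1A a change of -0.00041 ± 0.125 (SE) averaged over both stretch states, the smallest in size of 235 spot pairs, with an interval of -0.26 to 0.26 (limma, adjusted p = 0.997). A change of either sign within that interval is not excluded, and single animals ran from -0.42 in animal 2 to 0.41 in animal 3. In unstretched strips the change was -0.07 ± 0.177 (SE, adjusted p = 0.963 in limma), and 0.044 without animal 4. In stretched strips it was 0.07 ± 0.177 (SE, adjusted p = 0.955 in limma), higher in 4 of 5 animals, with -0.031 without animal 1 and 0.296 without animal 2. Strips with both treatments differed from untreated strips by 0.20 ± 0.177 (SE, interval -0.17 to 0.58, adjusted p = 0.886 in limma), higher in 4 of 5 animals.

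Within arrays, PRKAR1A was lower in carbachol unstretched than in saline stretched muscle on 5 of 6 arrays. The log2 ratios were -0.16 and -0.064 in animal 1, -0.41 and 0.038 in animal 4, and -0.092 and -0.21 in animal 5. Carbachol stretched over untreated muscle gave 0.17 in animal 2, 0.27 in animal 3, -0.12 in animal 4 and 0.28 in animal 5. In the first of these pairings the stretched strip is the saline one, and in the second it is the carbachol one, and PRKAR1A was higher in the stretched strip on 8 of these 10 arrays and in the carbachol strip on 4. BRAF, in the same pairings, was higher in the carbachol strip on 10 of 12 arrays and in the stretched strip on 6. The counts of both genes were not set against other spot pairs. Several of these arrays hold the same RNA samples, so they are not independent. Outside these counts, 1 array each compared stretch within 1 drug state for PRKAR1A in strips of 1 animal. Saline stretched over untreated muscle of animal 3 gave 0.10, and carbachol stretched over carbachol unstretched muscle of animal 2 gave -0.13.

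PRKAR1A repeated more closely between labellings than BRAF. The Cy5 minus Cy3 difference had a mean of -0.039, an SD of 0.402 and a median size of 0.225 over the 14 RNA samples with both dyes, and 43 of the tested pairs had a smaller median. The largest gap was 1.01, in carbachol unstretched muscle of animal 3. Both channels deviated together on 11 of the 13 arrays where this could be read, a count not set against other spot pairs. Arrays 1 and 4, 13 and 16, and 17 and 20 hold the same RNA samples with dyes exchanged, so their signs mirror each other by construction. The residual SD was 0.294, larger than that of 152 of 235 pairs. Duplicate spots differed by a median of 0.084 over 28 channels.

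A difference of PRKAR1A between the array sets passed in 0 of the 8 comparisons (limma, smallest adjusted p = 0.511, for the interaction), as for BRAF. Of all 220 spot pairs tested, 0% passed in each of these comparisons. The stretch change averaged 0.26 in animals 1 to 3 and 0.12 in animals 4 and 5. Signs also agreed for stretch in carbachol (0.19 and 0.40) and for both treatments against untreated (0.28 and 0.08). They were opposite for stretch in saline (0.32 and -0.15) and for the interaction (-0.12 and 0.55). Carbachol changes were opposite too: 0.029 and -0.044 averaged over stretch states, 0.09 and -0.32 unstretched, -0.033 and 0.23 stretched.

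Likeness to other spot pairs was measured as the root-mean-square difference of log2 levels after each animal's mean was removed. Of 213 pairs compared with BRAF over 16 or more RNA samples, the nearest were spots 369 and 370 at 0.168 over 20 samples, spots 481 and 482 at 0.171 over 18, and spots 523 and 524 at 0.172 over 16, against a median of 0.363. None of them carries a name. The named genes nearest to BRAF were the integrin subunits ITGA6 at 0.179 and ITGA11 at 0.180, while PRKAR1A stood at 0.377. For PRKAR1A the nearest were spots 857 and 858 at 0.125 over 19 samples, spots 607 and 608 at 0.138 over 20, and ITGA9, another integrin subunit, at 0.158 over 20, against a median of 0.295. All these pairs were read on the same arrays, whose differences they share. PRKCE, the 1 named kinase C gene, differed from BRAF by 0.513 and from PRKAR1A by 0.330.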

How the data were processed

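The authors deposited the linear intensity of each spot, with a column for each dye channel and 57.39% of cells blank. The RNA was amplified and coupled to Cy3 or Cy5, per the labels' protocols. The scanner, image software and background treatment were not stated in the sources used here. Probe names came from an old platform annotation of 30 spots, all matched by gene number to RefSeq (ARS-UCD2.0).

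Intensities were log2 transformed with no pseudocount added. Within arrays, the ratio of dyes was corrected by loess (span 0.4, 4 iterations). Arrays were then aligned on the median of the 193 spots that all of them measured. The mean of duplicate spots was used, or 1 spot if the other was blank. An RNA sample's value was the mean of its available dyes, at least 1, because PRKAR1A is blank on some arrays. Spot pairs with at least 3 animals per group were fitted with lmFit and eBayes of limma 3.58.1 (R 4.3.3), with treatment and animal as fixed terms. Tests were two-sided. Channel fits used statmod 1.5.0, and figures matplotlib 3.10.9 in Python 3.11.15. Animals pair the groups by the study's design. Deviations correlated at 0.493 on average within an animal and at -0.154 between animals, with a lowest value of -0.155 within. Deviations from a common mean cancel out over the samples, so the average between animals is largely set by that within animals. Strips of 1 animal shared 15 of the 20 arrays, so these values do not separate the animal from the array. The fit was tested on simulated data for the stretch comparison over 235 features: 19 of 20 features changed by 1 and 17 of 20 changed by 0.6 on the log2 scale were called, with 0 of the others called. The simulated spread was independent of the array, which in the data it was not. The changed features were also a larger share of the 235 than the 6 that passed for stretch in the data. Recovery was simulated for stretch alone, at changes larger than the -0.03 of BRAF and the 0.20 of PRKAR1A. The interaction had a larger SE, 0.296 against 0.148 for BRAF. The simulated rates may thus not carry over to these results. The number of animals and arrays limits the precision.

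The members, lists and tests were chosen with earlier results of these data known. The genes named besides BRAF and PRKAR1A are list members and the 3 spot pairs nearest to each by root-mean-square difference. ITGA6 and ITGA11 are neither, and are given as the named genes nearest to BRAF. Alternatives covered the block, scaling, dye, array, spots, filters, a pseudocount of 50, the variance model and leaving out each animal.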

Additional observations from a re-analysis of the deposited data

Results flagged for a closer look

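Groups of 5 animals were checked for an outlying value with Dixon's ratio, 24 groups in all, and chance flags about 1 in 20. The BRAF level in carbachol unstretched strips stood out, with animal 1 at 10.14 against 11.15 to 11.44 in the others, a gap of 0.776 of the whole range. The change of PRKAR1A with carbachol in stretched strips stood out in animal 2, at -0.824 against 0.22 to 0.48 in the others, a gap of 0.803 of the range. The saline stretched level behind the latter was read in Cy3 alone.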

How the results depend on the processing

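The 16 results for BRAF and PRKAR1A were recomputed under at most 23 other settings each, giving 342 values that are not independent. Of these values 0 passed the threshold, with signs changed in 35. Over leaving out each animal, the BRAF change ran from -0.092 to 0.062 for stretch, 0.055 to 0.184 for carbachol and 0.154 to 0.824 for the interaction, and that of PRKAR1A from 0.123 to 0.246 for stretch. Without the replicate block the stretch change of PRKAR1A was 0.203 ± 0.176 (SE) and the BRAF interaction 0.577 ± 0.417 (SE), with adjusted p values of 0.998 and 0.990 in limma; the block changed no call of either gene. PRKAR1A could not be fitted with both dyes required or from Cy3 alone, for want of untreated strips with a value. Without scaling between arrays the median interaction of all pairs moved from 0.088 to 0.287, and that of BRAF was 0.804. The BRAF interaction was 0.514 after median centring and 0.348 after quantile normalization. It was 0.864 from Cy3 values alone and 0.291 from Cy5 values alone. BRAF changed with stretch in saline by -0.603 from Cy3 values and by -0.042 from Cy5 values. Counts of passing pairs that differed most were those with the array as a fixed effect, 45 for stretch against 6, 18 for carbachol against 0 and 26 for both treatments against 5. In the other comparisons counts ran from 2 to 5 for stretch in saline against 4, 1 to 6 for stretch in carbachol against 2, 0 to 8 for the interaction, 0 to 6 for carbachol in unstretched and 0 to 1 in stretched strips, each against 0; the lowest counts for stretch (Cy5 alone) and for both treatments were 3 and 3. The cause was not tested. Signal over background is unknown.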
